A study of Mus musculus with 6 samples.

Results

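Matrix metalloproteinases (MMPs) and their tissue inhibitors (TIMPs) were examined in the leukocytes of inflamed mouse joints, as 7 genes: the proteinases Mmp12, Mmp13, Mmp14 and Mmp19 and the inhibitors Timp1, Timp2 and Timp3. All 7 have a row in the deposited table, which holds 20394 genes. They were chosen by name, with earlier results of these data known, out of 24 Mmp and Timp rows. The other 17 rows serve as their family for comparison. Counts of members set beside the share of all genes are therefore no test of an excess. C57BL/6 mice, male and bought at 8 weeks of age, had been immunized subcutaneously with 10 μg methylated bovine serum albumin (mBSA) in complete Freund's adjuvant. On day 21, a knee was injected with 100 μg mBSA, which starts antigen-induced arthritis (AIA), and from that day the mice received PBS, the vehicle, or 300 μg of the peptide PEPITEM intraperitoneally. On day 3 after the challenge, CD45+ cells, the blood lineage, were sorted from enzymatically digested joints. The 3′ ends of their mRNA were counted cell by cell as unique molecular identifiers (UMIs, tags that mark single RNA molecules). Which tissue of the joint a cell came from cannot be told from the counts. There are 2 PBS samples and 4 PEPITEM samples.

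The cells of all samples are in 1 table of 32953 cells, and each barcode ends in a library number from 1 to 6. No source used here ties these numbers to the samples, so PBS and PEPITEM were not compared, and every value below mixes both treatments. Levels are the UMIs of a gene per 1000000 UMIs of the cells named (CPM), pooled over the libraries, with an exact 95% Poisson interval that covers counting error only, and with the lowest and highest library. Because the treatment behind each library is not known, neither an SD nor a p-value is given across libraries. A pair of cell classes was said to differ in a gene when the pooled levels were at least 2-fold apart and all 6 libraries had the same direction, among genes with at least 20 UMIs in the classes together. The libraries held 2919 to 9345 cells and 47273569 to 123367661 UMIs, and 138 barcodes, 0.838% of the cells, occurred in a pair of libraries. Since each UMI marks the 3′ end of 1 molecule, levels of different genes need no correction for length.

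MMPs are zinc-dependent proteinases that cut collagens, proteoglycans and other proteins of the extracellular matrix, and most are made as inactive proenzymes. TIMPs block them by binding the active site. In an inflamed joint, their balance is known to matter for the loss of cartilage and for the passage of cells through tissue. Mmp12 encodes macrophage elastase, Mmp13 encodes collagenase 3, which cuts type II collagen of cartilage, and Mmp14 encodes the membrane-bound MT1-MMP, which cuts collagen at the cell surface and activates pro-MMP2 with the help of TIMP2. Mmp19 encodes a secreted proteinase that cuts basement membrane components. TIMP1 inhibits most secreted MMPs but is a poor inhibitor of MT1-MMP, and TIMP3 binds to the matrix and also blocks ADAM and ADAMTS enzymes.

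The genes lie on 5 chromosomes of GRCm38 (mm10), the build the authors used. Mmp13 (ENSMUSG00000050578, chr9:7272514-7283331) and Mmp12 (ENSMUSG00000049723, chr9:7344381-7369499) are both on the plus strand, and Mmp1b is annotated on the opposite strand of Mmp12. Mmp19 (ENSMUSG00000025355) lies at chr10:128790910-128800824, where Tmem198b and an antisense gene overlap it on the opposite strand, and Mmp14 (ENSMUSG00000000957) at chr14:54431612-54445364. Timp1 (ENSMUSG00000001131, chrX:20870166-20874735) lies inside Syn1 and Timp3 (ENSMUSG00000020044, chr10:86300372-86349506) inside Syn3, in both cases on the opposite strand. Timp2 (ENSMUSG00000017466, chr11:118301069-118355740) is on the minus strand and overlaps Cep295nl on that strand. How reads in such overlaps were assigned is not given in the sources used here, and their part in the counts was not tested. Sequence before the start of 5 of the genes is shown because the members differ so widely in where they were detected. The 150 bases end directly before the RefSeq start or the gene start given above, whichever comes first (RefSeq sequence, GRCm38.p6, 5′ to 3′). Distances of motifs are counted from the RefSeq start. Capitals mark AP-1 sites, spelled TGANTCA. They also mark TATA boxes, spelled TATAAA. The remaining capitals mark the ETS core, spelled AGGAAG on either strand. No marked motif overlaps another.
Mmp12, chr9:7344231-7344380, plus strand: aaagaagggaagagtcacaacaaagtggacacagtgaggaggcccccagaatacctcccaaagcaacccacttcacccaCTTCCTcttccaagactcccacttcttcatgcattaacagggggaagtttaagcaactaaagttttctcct
Mmp13, chr9:7272364-7272513, plus strand: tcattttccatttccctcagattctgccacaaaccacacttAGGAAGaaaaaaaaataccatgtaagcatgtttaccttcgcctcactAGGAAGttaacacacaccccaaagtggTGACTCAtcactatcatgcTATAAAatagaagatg
Mmp14, chr14:54431448-54431597, plus strand: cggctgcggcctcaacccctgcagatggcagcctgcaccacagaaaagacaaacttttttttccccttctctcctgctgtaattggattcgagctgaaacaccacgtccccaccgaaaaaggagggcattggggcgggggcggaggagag
Timp1, chrX:20870016-20870165, plus strand: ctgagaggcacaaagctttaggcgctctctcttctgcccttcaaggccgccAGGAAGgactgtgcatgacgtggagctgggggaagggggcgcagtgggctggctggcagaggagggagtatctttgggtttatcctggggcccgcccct
Timp3, chr10:86300222-86300371, plus strand: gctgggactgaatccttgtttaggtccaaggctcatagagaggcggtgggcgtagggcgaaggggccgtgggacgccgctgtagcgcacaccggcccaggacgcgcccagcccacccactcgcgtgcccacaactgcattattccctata

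Of the 7 genes, 6 were in the RefSeq promoter table, all but Mmp19. Mmp13 had both an AP-1 site, from 35 bases before its start, and a TATA box, from 16 bases before it. In the 250 bases before the start, an AP-1 site occurs in 6.87% and a TATA box in 13% of 27025 promoters. A second start of Mmp12 had an AP-1 site from 44 bases before it, and the 250 bases before the starts of Mmp14, Timp1, Timp2 and Timp3 held neither motif. The ETS core, found in 29.2% of the promoters, occurred in Mmp12, Mmp13, Mmp14, Timp1 and Timp3, in Mmp14 and Timp3 further from the start than the bases shown.

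The cells were put into 23 classes by counting which marker genes were detected in each cell, without any Mmp or Timp gene. These gates held 27279 cells, 82.8% of all. Their share of the UMIs of a member was 50.65% for Mmp12, 51.7% for Mmp14 and 55.45% for Mmp19. It was 61.92% for Timp1, 69.21% for Timp2, 70.22% for Mmp13 and 71.09% for Timp3. A share of UMIs cannot be set directly against a share of cells. Outside the gates, 2270 cells with markers of both macrophages and neutrophils held 65042608 of all 486548899 UMIs. Macrophages (3730 cells) had at least 5 of 9 general macrophage markers and were divided into Lyve1 macrophages, with at least 2 of 5 markers of resident synovial macrophages (1881 cells), Cxcl9 macrophages, in which Cxcl9 was detected (297 cells), Arg1 macrophages, in which Arg1 but not Cxcl9 was detected (406 cells), Aqp1 Fxyd2 macrophages (85 cells) and others (1061 cells). Classical monocytes numbered 2760. Neutrophils with Ngp, Camp and Ltf, genes of secondary granules, were called granule-rich (5436 cells) and the others granule-low (4720 cells). The classes rest on thresholds: 614 of the macrophages had exactly 5 general markers, and 999 of the monocytes had 4. Although the cells were sorted for CD45, 126 cells had at least 3 of 6 fibroblast markers, and Ptprc, which encodes CD45, was detected in 13.5% of them, against 94.6% of macrophages. The fibroblasts numbered 6 to 46 per library.

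The 7 genes differed in where and how widely they were detected (heatmap of levels by class). Timp2 was the most abundant, with 102286 UMIs in 51.4% of all cells. Mmp19 had 46916 UMIs in 18.6% of the cells, Mmp14 had 11638 in 11.4% and Timp1 had 7319 in 5.68%. Mmp12, Mmp13 and Timp3 were each found in less than 1% of the cells, with 1001, 1437 and 1802 UMIs. Timp1, Timp2, Timp3 and Mmp13 had their highest pooled level in fibroblasts, Mmp14 and Mmp19 in Arg1 macrophages and Mmp12 in migratory dendritic cells (DCs).

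**Figure D1:**
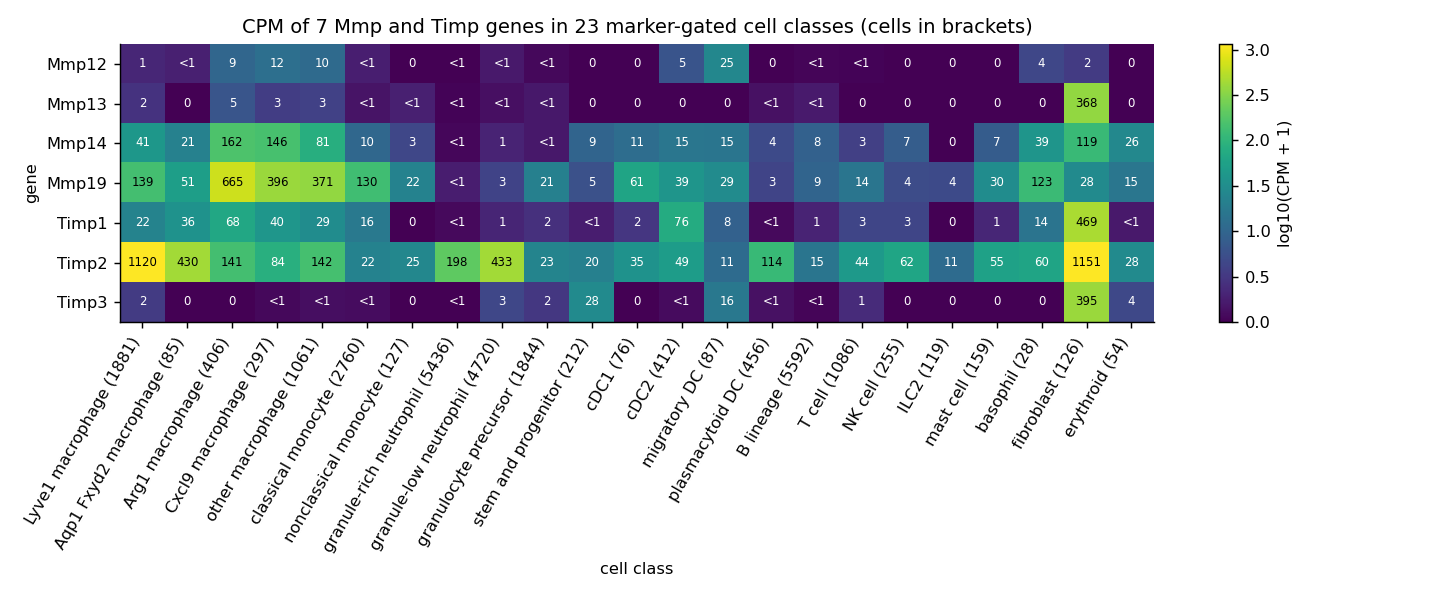
Pooled level of each gene (rows) in each of 23 marker-gated classes (columns, with the number of cells in brackets). Color is log10(CPM + 1) and the numbers in the fields are CPM. The highest fields are Timp2 in fibroblasts (1151) and Lyve1 macrophages (1120) and Mmp19 in Arg1 macrophages (665).

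Mmp14, the membrane-bound collagenase, was highest in Arg1, Cxcl9 and other macrophages and in fibroblasts. Its level was 162 CPM in Arg1 macrophages (interval 153 to 171, libraries 59.2 to 229), 146 in Cxcl9 macrophages (137 to 156, libraries 115 to 189) and 81.2 in other macrophages (libraries 46.5 to 126). The ranges of the 3 classes overlap, although within each of the 6 libraries Arg1 macrophages had more Mmp14 than other macrophages. Lyve1 macrophages had 41.2 CPM (interval 38.9 to 43.7, libraries 19.6 to 98.0) and classical monocytes 9.51 (libraries 2.91 to 33.7). In neutrophils it was nearly absent, at 0.339 CPM in 0.197% of the cells. Basophils had 38.6 CPM, with a UMI in 3 of 28 cells. Erythroid cells had 26.0 CPM (libraries 14.1 to 78.7), with a UMI in 33.3% of 54 cells at a median depth of 32349 UMIs. Both were above the Aqp1 Fxyd2 macrophages at 21.3 CPM. The gene was detected in 78.8% of Arg1 macrophages and 18.7% of Lyve1 macrophages, and after thinning each cell to 2000 UMIs in 26.8% and 4.93%. In B lineage cells, taken as a background for macrophage genes, it was found in 4.49% of the cells before and 1.09% after thinning, at a median depth of 5776 UMIs per cell against 17725 in Arg1 macrophages. In T cells the share was 1.47%, so B lineage cells had more Mmp14 than T cells although their median depth was lower (9191 UMIs in T cells). The level of B lineage cells, 7.89 CPM (libraries 4.23 to 9.97), was near that of classical monocytes, of which 1.69% were positive after thinning. B lineage cells had more Mmp14 than monocytes in libraries 2, 5 and 6 and less in libraries 1, 3 and 4. Pooled over libraries, monocytes were thus little above this background.

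Mmp19 was the most abundant of the 4 proteinases. Arg1 macrophages had 665 CPM (interval 647 to 684), and the libraries 1 to 6 had 603, 596, 815, 572, 713 and 486. Cxcl9 macrophages had 396 CPM (libraries 189 to 632), other macrophages 371 (277 to 465), Lyve1 macrophages 139 (73.3 to 231) and monocytes 130 (66.9 to 379). Every library of the other macrophages lay above every library of the Lyve1 macrophages, while the ranges of Lyve1 macrophages and monocytes overlap. Granulocyte precursors had 20.6 CPM, and granule-rich neutrophils 0.772, lower in all 6 libraries. In Lyve1 macrophages 34.8% of the cells had a UMI, and the richest held 96 of 3840 UMIs.

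Levels of both proteinases in monocytes were highest in libraries 1 and 3. Mmp14 was at 31.8 and 33.7 CPM there and at 2.91 to 8.98 in the others, and Mmp19 at 286 and 379 against 66.9 to 125. These are also the libraries with the fewest classical monocytes, 226 and 205, and the part of this in the levels was not tested. In monocytes grouped with macrophages by the number of general markers detected, Mmp14 had 5.00 CPM in cells with 3 markers, 16.6 with 4 and 64.3 with 5, and Mmp19 had 92.4, 208 and 345. When cells were taken by Leiden cluster in place of gates, monocytes had 51.5 CPM Mmp19.

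**Figure D2:**
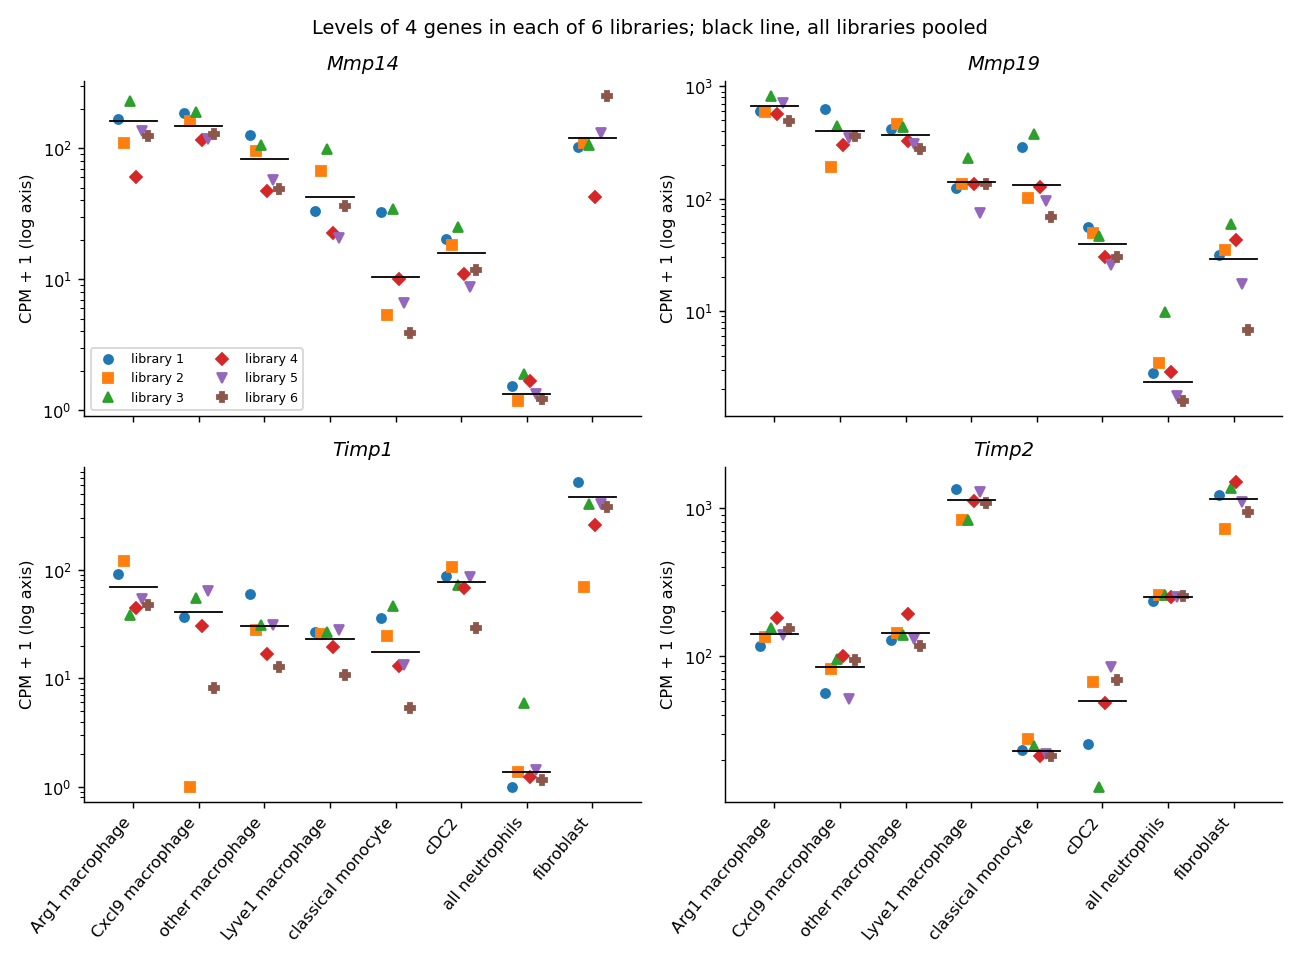
Levels of Mmp14, Mmp19, Timp1 and Timp2 in 8 classes, with 1 symbol per library and the pooled level as a black line, as CPM + 1 on a log axis. Timp2 in neutrophils lies within a narrow band (235 to 256 CPM), and Timp2 in Lyve1 macrophages (824 to 1332) lies above every library of the other macrophage classes shown.

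Mmp12, macrophage elastase, was found in 185 cells in all. Of its UMIs, 36.1% were in the 10 richest cells, and 54.1% in the 20 richest. Cxcl9 macrophages had 12.3 CPM, other macrophages 10.3 and Arg1 macrophages 9.38, against 1.13 in Lyve1 macrophages, and each of these 4 classes had a library without any Mmp12 UMI. These levels rested on few cells. In Cxcl9 macrophages 1 cell held 40 of 72 UMIs, and without it the level was 5.49 CPM. Without their richest cell, other macrophages had 8.68 CPM and Arg1 macrophages 6.54. Library 1 had 56 of the 69 UMIs of Arg1 macrophages, which without it had 2.495 CPM, so the order of the 3 classes is not settled. Without library 1, other macrophages had 6.63 CPM, and without library 4, Cxcl9 macrophages had 7.97. The gene was detected in 2.96% of Arg1 macrophages and in 0.425% of Lyve1 macrophages. The highest level, 25.3 CPM in migratory DCs, came from 3 cells, 1 of which held 35 of 38 UMIs. Without this cell the level was 2.06 CPM. Likewise, cDC2, a type of conventional DC, had 5.28 CPM, and 1.61 without their richest cell. The 51 cells with at least 5 UMIs held 76.9% of the total, and 21 of them were macrophages.

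Mmp13, collagenase 3, had 368 CPM in fibroblasts (interval 342 to 395), but this value rested on few cells. Only 10 of the 126 fibroblasts had a UMI (7.94%, exact Clopper-Pearson 95% interval 3.87% to 14.1%). Library 6 had 650 of the 755 UMIs, in 4 of its 12 fibroblasts, and without this library the level was 55.9 CPM. Leaving out the 3 richest cells alone gave 56.0 CPM, and in libraries 3 and 4 none of the fibroblasts had a UMI. The richest cell had 297 UMIs, which is 20.7% of all Mmp13 UMIs in the data. Arg1 macrophages had 5.44 CPM, 27 of their 40 UMIs in 1 cell, and Lyve1 macrophages had 1.78 CPM in 1.81% of the cells. Macrophages had more Mmp13 than monocytes in all 6 libraries (2.60 against 0.457 CPM), 5.70-fold with all libraries and 42.9-fold without library 6, and 4 of the 6 fibroblast markers were higher in macrophages than in monocytes by the same criterion. Their summed level was 4.90 CPM in macrophages (libraries 3.39 to 6.66), 0.479 in monocytes (0.160 to 0.995) and 28440 in fibroblasts, and none of the 6 was at 0 in either class. Of the 65 macrophages with Mmp13, 62 had no fibroblast marker UMI, but neither had 3515 of all 3730 macrophages, a similar share. The level in macrophages without one was 2.70 CPM. Where the Mmp13 UMIs of macrophages came from was not tested.

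**Figure D3:**
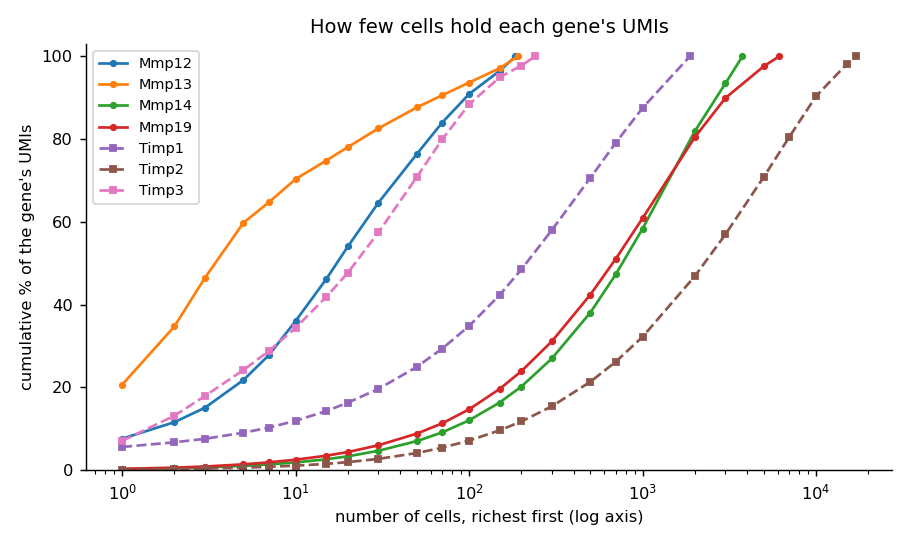
Cumulative share of the UMIs of each gene (y axis, %) in its richest cells (x axis, number of cells, log axis). For Mmp13, the 10 richest cells hold 70.4% of the UMIs, for Mmp12 36.1% and for Timp3 34.4%, while for Timp2 they hold 1.07%.

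Timp2, the inhibitor that also takes part in the activation of pro-MMP2, differed from Mmp14 and Mmp19 in its order among the macrophage classes. Lyve1 macrophages had 1120 CPM (interval 1108 to 1133), and the libraries 1 to 6 had 1332, 824, 831, 1118, 1269 and 1079. Aqp1 Fxyd2 macrophages had 430 CPM (libraries 163 to 572), other macrophages 142, Arg1 macrophages 141, Cxcl9 macrophages 83.6 and classical monocytes 21.9 (libraries 20.2 to 26.5). Fibroblasts had 1151 CPM, and their range of libraries (718 to 1484) overlaps that of Lyve1 macrophages, with the fibroblasts lower in 4 of 6 libraries. Timp2 was detected in 98.5% of Lyve1 macrophages and in 23.9% of monocytes, and after thinning in 78.6% and 4.45%. B lineage cells had it in 3.27% of the cells, T cells in 23.9%.

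Among macrophages, Timp2 and the proteinases differed in opposite directions with the number of Lyve1-type markers detected in a cell (plot by marker number). These markers are Lyve1, Cd163, Folr2, Timd4 and Cbr2. Timp2 was at 95.7, 227, 476, 1124, 1507 and 1614 CPM in cells with 0, 1, 2, 3, 4 and 5 markers. Mmp14 was at 112, 106, 92.4, 25.3, 12.6 and 15.5 CPM, and Mmp19 at 453, 396, 230, 96.9, 91.2 and 105. Timp1 was at 39.7 CPM without and 11.6 with all 5 markers. The median depth of the groups, 11575 to 17218 UMIs per cell, differs less than the levels. The 514 cells with exactly 2 markers are at the edge of the Lyve1 gate and resemble the cells below it in Mmp14. With Leiden clusters in place of gates, Lyve1 macrophages had 12.6 CPM Mmp14, against 41.2 in the gate.

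**Figure D4:**
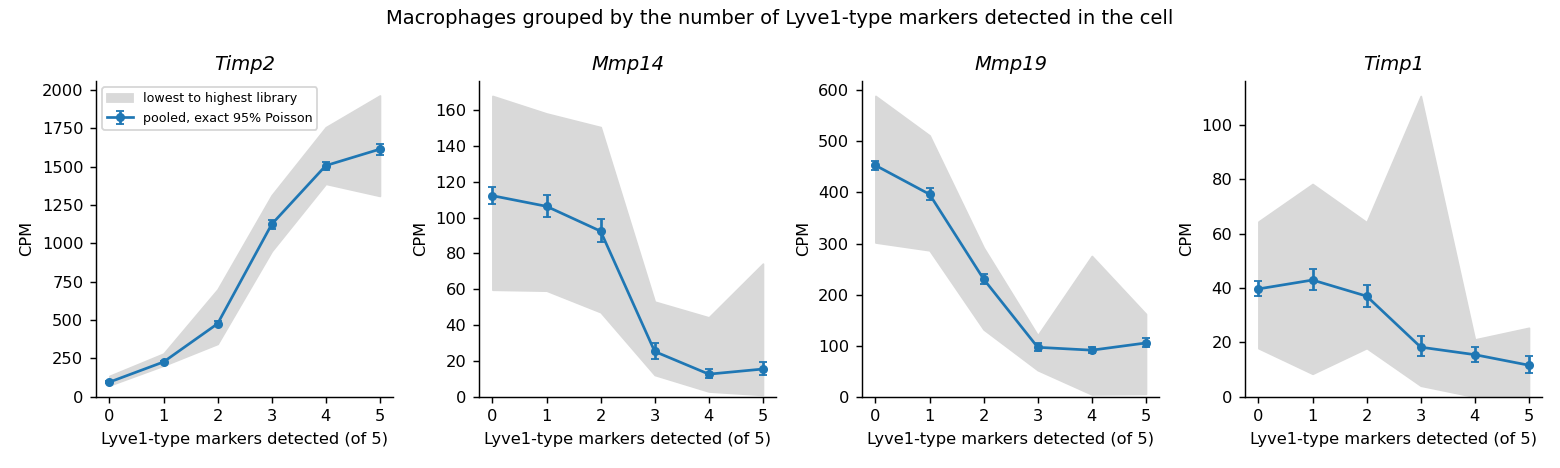
Levels (CPM) of Timp2, Mmp14, Mmp19 and Timp1 in macrophages with 0 to 5 of the Lyve1-type markers detected. Points are pooled levels with exact 95% Poisson intervals, and the gray band runs from the lowest to the highest library. Timp2 climbs from 95.7 to 1614 CPM while Mmp14 goes from 112 to 15.5 CPM.

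By the criterion of 2-fold and 6 of 6 libraries, Lyve1 macrophages had more Timp2 than the inflammatory macrophages (Arg1 and Cxcl9 together) and less Mmp14, Mmp19 and Timp1. Timp2 was 9.71-fold higher (6.23 to 15.7 in single libraries). Mmp14 was 3.76-fold lower (1.66 to 6.23), Mmp19 3.91-fold lower (2.71 to 6.44) and Timp1 2.51-fold lower (1.71 to 4.65). Of all 12979 genes tested, 10.4% were higher and 3.09% lower in Lyve1 macrophages, against 1 higher and 3 lower of the 7 members. The members were chosen with earlier results of these data known, so this is no test of an excess. Mmp12 was lower by pooled value (1.13 against 10.7 CPM) but only in 5 of 6 libraries, and Mmp13 (1.78 against 4.16 CPM) in 3 of 6. Timp3 differed between 2.40 and 0.0756 CPM, but 42 of the 66 UMIs in Lyve1 macrophages came from 1 cell, which lay in the fibroblast cluster.

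Between Cxcl9 and Arg1 macrophages, none of the 6 members tested met the criterion, where 0.662% of 10718 genes were higher and 1.54% lower. The pooled levels of Mmp19 and Timp2 were 1.68-fold and 1.69-fold lower in Cxcl9 macrophages, in 5 and 6 of 6 libraries. Mmp14 stood at 146 against 162 CPM, higher in Cxcl9 macrophages in 4 of 6 libraries. Library 2 had only 3 Cxcl9 macrophages. The criterion looks at pooled folds of at least 2, and differences as small as those of Mmp14 cannot be told from the spread of the libraries.

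Macrophages as a whole had more Mmp13, Mmp14, Mmp19 and Timp2 than classical monocytes, and none of the members was lower. This is 4 of 7 members, where 12.7% of 14470 genes were higher and 6.82% lower. As the members were chosen with earlier results known, the share is a reference and no test. Timp2 was 27.4-fold higher (13.8 to 37.4 in single libraries), Mmp14 8.19-fold (2.79 to 20.04) and Mmp19 2.28-fold (1.09 to 3.79). The base of the Mmp14 fold, 9.51 CPM in monocytes, was near the 7.89 CPM of B lineage cells. Timp1 was at 32.1 against 16.5 CPM, with 5 of 6 libraries higher in macrophages. Mmp12 had 5.90 against 0.827 CPM, also in 5 of 6 libraries. The folds mix macrophage classes that differ. Lyve1 macrophages held 30847 of the 35276 Timp2 UMIs of macrophages, and inflammatory macrophages had 115 CPM Timp2 against 21.9 in monocytes. For Mmp19, Lyve1 macrophages had 139 CPM, near the 130 of monocytes.

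In both classes of neutrophils, Timp2 was by far the most abundant member, while in granulocyte precursors Timp2 and Mmp19 were close, at 22.7 and 20.6 CPM, with Mmp19 the higher in libraries 3 and 4 (plot of the neutrophil lineage). In granule-low neutrophils the next were Timp3 and Mmp19, at 3.45 and 3.14 CPM. For Timp3, 86 of the 87 UMIs were in 1 cell, which lay in the fibroblast cluster. Without this cell Timp3 was at 0.0397 CPM. The level of Timp2 was 22.7 CPM in granulocyte precursors (libraries 11.3 to 30.1), 198 in granule-rich neutrophils (177 to 214) and 433 in granule-low neutrophils (346 to 473). The libraries of the 3 classes do not overlap. Granule-low neutrophils had 2.19-fold more than granule-rich ones in CPM, although the share of cells with a UMI was lower, 73.1% against 78.4%. Their median depth was 4827 against 12844 UMIs, and after thinning to 2000 UMIs the shares were 50.2% and 35.2%. By the number of the 3 granule genes detected, Timp2 had 381 CPM in neutrophils with none, 464 with 1, 479 with 2 and 198 with all 3, so the level did not go down evenly with granule genes. Mmp8, neutrophil collagenase, and Mmp9, gelatinase B, were the family rows at the highest levels here. Mmp8 had 83.6, 1272 and 1300 CPM and Mmp9 58.2, 1145 and 1685 CPM in the 3 classes. Mmp19 and Timp1 were higher in precursors than in granule-rich neutrophils in 6 of 6 libraries, at 20.6 against 0.772 and 1.68 against 0.184 CPM.

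**Figure D5:**
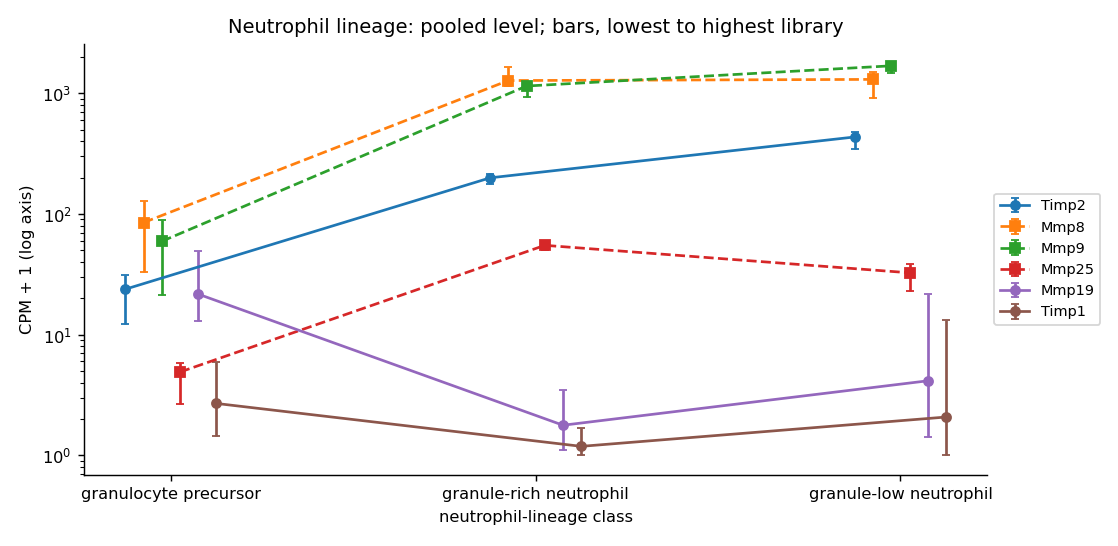
Levels (CPM + 1, log axis) of Timp2, Mmp19 and Timp1 (circles, solid lines) and of the family rows Mmp8, Mmp9 and Mmp25 (squares, dashed lines) in 3 classes of the neutrophil lineage. Bars run from the lowest to the highest library. Timp2 goes from 22.7 to 198 and 433 CPM.

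Against classical monocytes, neutrophils had 11.5-fold more Timp2 (251 against 21.9 CPM, 9.66-fold to 12.5-fold in single libraries), where 7.92% of 14192 genes were higher. Mmp14, Mmp19 and Timp1 were lower by 28.0-fold, 99.7-fold and 42.9-fold in 6 of 6 libraries. For Mmp14, the level of monocytes (9.51 CPM) was itself near that of B lineage cells (7.89 CPM). As 45.7% of all genes were lower in neutrophils with CPM, 3 of 7 members is close to the background with that scaling. These shares depend on scaling: 14.8% of all genes that met the criterion were higher with CPM, and 48.6% with size factors by the median of ratios, which moved the ratio of all genes by 1.11 on the log2 scale. With these size factors 2931 genes were lower in neutrophils, against 6488 with CPM, so the background of lower genes is smaller. The same 4 members met the criterion in the same direction with either scaling.

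Timp1, the inducible inhibitor, was led by fibroblasts, with 469 CPM (interval 440 to 500, libraries 68.4 to 639) in 58.7% of the cells. One fibroblast of library 1 held 410 of the 962 UMIs, and without it the level was 275 CPM. Next came cDC2 with 75.6 CPM (libraries 28.2 to 104) and Arg1 macrophages with 68.4 (37.5 to 119), whose ranges overlap. In cDC2, Timp1 was 4.59-fold higher than in classical monocytes, in 6 of 6 libraries. Cxcl9 macrophages had 40.0 CPM, other macrophages 29.5, Lyve1 macrophages 22.3 and classical monocytes 16.5, all with overlapping libraries. Timp1 was detected in 0.411% of B lineage cells and 0.276% of neutrophils.

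Timp3, the matrix-bound inhibitor, had its highest level in fibroblasts, which held 811 of its 1802 UMIs. They had 395 CPM (interval 369 to 424, libraries 272 to 879) in 74.6% of the cells, and every library of theirs lay above every library of the other 22 classes. Stem and progenitor cells had 27.9 CPM (libraries 0 to 86.4), in 14 of 212 cells, and migratory DCs 16.0 CPM, in 7 of 87 cells. In Arg1 macrophages no UMI was counted among 406 cells, where 3 UMIs would be 0.408 CPM. The 3.45 CPM in granule-low neutrophils came almost wholly from 1 cell with 86 of 87 UMIs, which lay in the fibroblast cluster, and without it the level was 0.0397 CPM. In the 215 macrophages with a UMI of a fibroblast marker, Timp3 was at 16.9 CPM, against 0.199 in the 3515 macrophages without one. The 16.9 CPM came from 61 UMIs in 4 cells. Of these UMIs, 42 were in 1 cell, which lay in the fibroblast cluster.

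Fibroblasts had more Timp1 (14.6-fold) and Timp3 (323-fold) than macrophages in 6 of 6 libraries, and less Mmp19 (10.6-fold). The size of the first 2 folds rested on single cells: without the fibroblast with 410 UMIs, Timp1 was 8.55-fold higher, and without the macrophage with 42 UMIs, which lay in the fibroblast cluster, Timp3 was 775-fold higher. Without library 1, Timp3 was 794-fold higher. In all, 2 members were higher and 1 lower, where 8.51% of 14289 genes were higher and 18.9% lower. Timp2 was 1.92-fold higher, also in 6 of 6 libraries, and thus below the fold required. Mmp14, at 119 against 77.9 CPM, was higher in 4 of 6 libraries. Among the other rows of the family, Mmp2, gelatinase A, which Mmp14 activates, had 473 CPM in 81.7% of fibroblasts and 1.51 CPM in macrophages. Mmp3, stromelysin 1, had 593 CPM in fibroblasts but in only 19.0% of the cells and with libraries from 0 to 906 CPM. Mmp23 had 32.2 CPM in fibroblasts. Outside the fibroblasts and neutrophils, Mmp25 had 211 CPM in migratory DCs (libraries 143 to 303).

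Summed over the members, the proteinases and the inhibitors stood in opposite proportion in the classes of macrophages. In Arg1 macrophages the 4 Mmp members had 842 CPM and the 3 Timp members 209, so that there were 4.02 Mmp UMIs per Timp UMI (2.80 to 5.50 in single libraries). Cxcl9 macrophages had 4.50 (3.34 to 9.21), other macrophages 2.71 (1.86 to 3.30) and monocytes 3.65 (2.07 to 5.97). In Lyve1 macrophages the order was turned around, with 184 CPM Mmp and 1145 CPM Timp, or 6.24 Timp UMIs per Mmp UMI (2.58 to 13.7). Most of these sums came from Timp2 at 1120 CPM and Mmp19 at 139 CPM. The 85 Aqp1 Fxyd2 macrophages had the same order, with 6.36 Timp UMIs per Mmp UMI (3.04 to 23.6). In each of these classes all 6 libraries had the same direction. cDC2 had 2.12 Timp UMIs per Mmp UMI, in 6 of 6 libraries, and plasmacytoid DCs 15.4, mostly from Timp2 at 114 CPM. Fibroblasts had 3.90, in 5 of 6 libraries, the exception being library 6 with its Mmp13. The sums cover transcripts of the members only, and some directions change when all Mmp rows are summed against the same 3 Timp members. In cDC2 the order turned, to 356 CPM Mmp against 124.5 Timp, or 2.86 Mmp UMIs per Timp UMI. Of these 356 CPM, Mmp9 had 129 and Mmp8 had 124, the rows that were highest in granule-low neutrophils. S100a8, detected in 99.91% of neutrophils, was found in 20.15% of cDC2. Whether RNA of neutrophils had a part in the sum was not tested. In neutrophils it turned as well, to 10.3 Mmp UMIs per Timp UMI, since all Mmp rows had 2599 CPM against 1.91 for the members. Fibroblasts came to 1.12 and plasmacytoid DCs to 1.31 Timp UMIs per Mmp UMI. Lyve1 and Aqp1 Fxyd2 macrophages stayed on the Timp side with 5.31 and 4.88. Arg1, Cxcl9 and other macrophages and monocytes stayed on the Mmp side with 4.18, 4.86, 3.09 and 6.91. Of the 267 CPM Mmp in monocytes, Mmp8 had 115.

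Of the 17 other family rows, 8 were above 10 CPM in a class, 4 of them highest in fibroblasts (Mmp2, Mmp3, Mmp16 and Mmp23) and 2 in granule-low neutrophils (Mmp8 and Mmp9). Of 24 genes of pericellular proteolysis, 23 were in the table and all of these were above 10 CPM in a class, 12 of them highest in fibroblasts. The share of all genes highest in fibroblasts is not given here, so these counts of highest classes have no background. Between Lyve1 and inflammatory macrophages, those that met the criterion included Reck, Plau, Plat, Adam19 and Ctsk, higher in Lyve1 macrophages, and Adam8, which was lower. Plau, the urokinase that activates plasminogen, was at 79.5 against 35.1 CPM, and Ctsk, the collagen-cutting cathepsin K, at 71.6 against 12.7. Furthermore, Reck, a membrane-bound inhibitor of MMPs, was higher in neutrophils than in monocytes, at 18.3 against 0.631 CPM. Over the pericellular list, 4 of the 21 tested were higher in neutrophils and 10 lower, where 7.92% of all genes were higher and 45.7% lower with CPM. The count of lower genes is near the background with that scaling.

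Of 19 genes of matrix substrates, 17 had their highest level in fibroblasts, and between fibroblasts and macrophages 13 of the 19 were higher and none lower in fibroblasts, where 8.51% of all genes were higher and 18.9% lower. Col1a1, Col1a2, Col3a1, Dcn and Lum, among both the 17 and the 13, are 5 of the 6 fibroblast markers of the gate. Their highest class and their direction were therefore fixed by the choice of cells and are no result. The share of all genes highest in fibroblasts is not given here, so the 17 cannot be set against a background. Spp1, the matrix protein osteopontin and an MMP substrate, was highest in Arg1 macrophages (2673 CPM), as Mmp14 and Mmp19 were. Fn1, fibronectin, had 2798 CPM in fibroblasts and 2725 in Arg1 macrophages. Both were lower in Cxcl9 macrophages in 6 of 6 libraries, Spp1 by 5.72-fold and Fn1 by 4.16-fold, while Mmp14 did not meet the criterion there. Vcan, versican, a marker used for the monocyte gate, was highest in classical monocytes (718 CPM).

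In single macrophages, Mmp14 and Mmp19 were detected together in 29.1% of the cells, against a product of 19.3% from their separate shares. Part of the excess lies between the classes: in Arg1 macrophages the 2 values were 70.9% and 69.7%. Within Lyve1 macrophages they were 13.4% and 6.51%. There, 71.6% of the cells with Mmp14 also had Mmp19, against 26.3% of the others, and the median depth was 20288 UMIs in cells with Mmp14 and 12131 in the others. Over all macrophages, Mmp19 and Timp2 were found together in 39.0% of the cells, against a product of 42.4%, although cells with Mmp19 were the deeper. Within the classes the 2 values lay closer together. They were 61.6% and 61.4% in Arg1, 43.1% and 44.1% in Cxcl9, 39.3% and 38.7% in other and 34.0% and 34.3% in Lyve1 macrophages.

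The likeness of patterns was described by Pearson's r of log2(CPM + 1) over the 23 classes, which share libraries and differ in depth and number of cells. Mmp14 and Mmp19 had r = 0.80, Mmp14 and Timp1 0.79, and Mmp19 and Timp2 0.17. Among 12529 genes that reached 10 CPM in a class, those most like Mmp14 were Axl (0.87), Pdpn (0.85) and Dab2 (0.85), and those most like Mmp19 were Fcgr1 (0.93), Ms4a6d (0.91) and Aif1 (0.91). Fcgr1 is among the macrophage markers of the gates. Timp1 was closest to Axl (0.88), Pgf (0.84) and Creb5 (0.84), and Timp2 to Zfp651 (0.79), Gas6 (0.77) and Dnm1 (0.77). Closest to Timp3 were Ndrg2 (0.93), Tead3 (0.92) and Clu (0.92), to Mmp13 Cfd (0.94), Pla2g2e (0.93) and Wisp2 (0.93), and to Mmp12 Flrt3 (0.84), Zmynd15 (0.84) and Pvrl2 (0.83). The values for Mmp12 and Mmp13 rest on few cells. In migratory DCs, 1 cell held 35 of the 38 Mmp12 UMIs, and in fibroblasts, library 6 held 650 of the 755 Mmp13 UMIs.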

How the data were processed

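Single-cell RNA sequencing of CD45+ synovial cells from 6 samples (2 PBS, 4 PEPITEM) was analyzed. The authors aligned reads to mm10 with Cell Ranger 7, removed ambient RNA with SoupX and doublets with DoubletFinder, and filtered cells in Seurat. They deposited whole UMI counts, not scaled for depth, with a list of genes and a list of barcodes in other files, which the authors deposited as plain names. Whether this table is from before or after the removal of ambient RNA is not given in the sources used here, so low counts may hold free RNA. It stores 1724738 zeros.

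The 7 genes and all gene lists were chosen with earlier results of these data known. The markers were listed by class, and the number of markers a gate requires was set after the detection of markers, but not the levels of the members, had been looked at. Cells that passed several gates, none, or both macrophage and neutrophil markers (5674 cells, 17.2%) are outside the classes. No doublet caller was run. CPM were compared between 5 pairs of classes over all genes with at least 20 UMIs. In data made with known answers, the comparison recovered all genes changed. The settings of these made data and the number of false calls are not given here. Nothing is therefore concluded from them, either for genes whose UMIs lie in few cells or for the others. Named genes were the 7 members, other Mmp and Timp rows above 10 CPM in a class, 24 genes of pericellular proteolysis, 19 matrix substrates, and the 3 genes most like each member. Shares were thinned to 2000 UMIs per cell as an expectation, without the cells below that depth (0 to 91 cells in each class). PEPITEM against PBS was not tested. 1 gene of the proteolysis list is not reported here by name. Alternatives were stricter gates, Leiden clusters (2000 variable genes, 30 components, 15 neighbors, resolution 1, no integration), a fold of 3, median-of-ratios scaling, no filter on low counts, means over cells, the median library, leaving out each library, leaving out the top 1% of cells by UMIs and, chosen after seeing the data, leaving out the richest cell and recomputing the folds without each library. Python 3.11.15, numpy 2.4.6, scipy 1.17.1, pandas 2.3.3, scanpy 1.11.5, igraph 0.11.9 and matplotlib 3.10.9 were used.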

Additional observations from a re-analysis of the deposited data

Results flagged for a closer look

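All 7 genes were also counted in the 5674 cells outside the 23 classes, which no comparison uses, at levels above the 0.0245 CPM that 3 UMIs would give there. Their levels in these cells were 4.04 CPM for Mmp12, 3.5 for Mmp13, 46.0 for Mmp14, 171 for Mmp19, 22.8 for Timp1, 258 for Timp2 and 4.26 for Timp3. Of the cells outside the classes, 2270 had the markers of macrophages and of neutrophils together. They had 69.4 CPM Mmp14, 241 CPM Mmp19 and 377 CPM Timp2, with a median of 25503 UMIs per cell against 14822 in macrophages and 7630 in neutrophils. These cells held 4515 Mmp14 UMIs, against 4578 in all gated macrophages. Timp3 was at 11.9 CPM in the 826 cells that passed several gates, with 110 of its 231 UMIs in 1 cell, and at 7.38 CPM in the 2578 cells that passed none, with 127 of 279 UMIs in 1 cell.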

How the results depend on the processing

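No paired analysis was possible because the barcodes carry library numbers that no source ties to the samples, so the replicate numbers of the PBS and PEPITEM samples could not be used. For the same reason no alternative of the PEPITEM comparison was run. The numbers of members that met the criterion in 5 comparisons and both directions stayed within 1.5 times under 107 of 108 alternative settings. The exception was the number lower in fibroblasts than in macrophages, which ranged from 1 to 2 when each library was left out, as Mmp12 joined Mmp19 without library 6. Counts as small as these can lose a member and stay within 1.5 times. Without library 6, Mmp19 was 1.978-fold higher in macrophages than in monocytes, below the fold required. At a fold of 3, the criterion was not met by Mmp19 in that comparison (2.275-fold). It was also not met by Timp1 between Lyve1 and inflammatory macrophages (2.506-fold). No Leiden cluster stood for Arg1 or Cxcl9 macrophages alone, so their levels and their comparison have no value with clusters. Of 658 levels recomputed, 438 stayed within the counting interval of the pooled value and 79 moved by more than 1.5 times. Among levels of at least 20 CPM these were Mmp13 in fibroblasts (46.7 CPM as the median of the libraries, 644 without library 1), Mmp14 in Lyve1 macrophages, Mmp19 in monocytes and in fibroblasts (42.1 with clusters), Mmp19 in cDC2 (24.9 with stricter gates) and Timp1 in other macrophages (48.6 with clusters) and in fibroblasts. Median-of-ratios scaling moved the ratio of Lyve1 to inflammatory macrophages by 0.15 on the log2 scale and that of fibroblasts to macrophages by -0.15. Levels near 1 CPM in the classes with under 100 cells are at the limit of the depth.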

Other observations

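Over all macrophages, Mmp14 was at 88.7, 87.9, 137, 42.9, 46.4 and 53.2 CPM in libraries 1 to 6, and Mmp19 at 310, 380, 424, 224, 196 and 238. For both genes, the values of libraries 1, 2 and 3 lay above those of libraries 4, 5 and 6. For Mmp14 this was also so in other macrophages (126, 94.3 and 105 against 46.5, 56.6 and 47.8 CPM) and in cDC2 (19.3, 17.3 and 24.3 against 9.93, 7.70 and 10.8). The same held for Mmp19 in other macrophages (418, 465 and 436 against 327, 303 and 277 CPM) and in cDC2 (54.9, 48.7 and 45.7 against 29.4, 24.8 and 29.2). In monocytes, Arg1 macrophages and Lyve1 macrophages the order did not hold. In monocytes library 2 had 4.39 CPM Mmp14. In Arg1 macrophages Mmp14 was at 109 CPM in library 2 and 134 in library 5, and Mmp19 at 603 and 596 in libraries 1 and 2 and 713 in library 5. In Lyve1 macrophages Mmp14 was at 32.2 CPM in library 1 and 35.4 in library 6, and Mmp19 at 124 in library 1 and 135 in libraries 4 and 6. Timp2 in all neutrophils had no such order, with 235, 256, 256, 250, 248 and 255 CPM. The mix of macrophage classes differed between the libraries as well. Inflammatory macrophages were 159 of 788, 68 of 305 and 210 of 683 macrophages in libraries 1, 2 and 3. In libraries 4, 5 and 6 they were 130 of 859, 86 of 643 and 50 of 452. The part of this mix in the levels over all macrophages was not tested. The treatment of these libraries is not known here, and the pattern was noticed in the data and not tested.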
